A study of Mus musculus with 10 samples.

Results

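Chromatin accessibility was examined at 10 genes that are switched on by ERK signalling. Those that act back on it were the Sprouty genes Spry1, Spry2 and Spry4, the related Spred1, and the dual-specificity phosphatases Dusp4, Dusp5 and Dusp6. The others were the Pea3 group of ETS transcription factors, Etv1, Etv4 and Etv5. All 10 are called members here. They were taken by name from the 21951 protein-coding genes of the annotation, and a peak was assigned to a gene when its summit lay in the gene body or within 50 kb of it. Of the 99231 regions found in 2 or more libraries, 87 lay in these windows. ATAC-seq, in which a transposase inserts adapters into open DNA, had been run on cultured neural stem cells of the subependymal zone (SEZ), taken from 10-week-old mice, with 50000 cells per library. Proliferating cultures (PRO) were neurospheres kept with EGF (20 ng/ml) and FGF (10 ng/ml) for 3 days in vitro by the labels and methods, although the study's results give a longer time. For the onset of differentiation (DIFF), cells were plated on Matrigel for 2 days with FGF and then left for 24 h without mitogens in 2% FBS, so that substrate and serum changed together with the mitogens. There were 3 PRO and 3 DIFF libraries from wild-type (WT) cultures and 2 of each from p27KO cultures, which lack Cdkn1b. How many animals gave each culture is not given in the sources used here, so p-values measure only the spread between these libraries, which may be technical.

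EGF and FGF receptors signal through Ras, Raf and MEK to ERK. ERK induces its own inhibitors: Sprouty and Spred proteins restrain the step from receptor to Raf, and dual-specificity phosphatases remove phosphate from MAP kinases. It also induces Etv1, Etv4 and Etv5, which carry the transcriptional response to FGF in many progenitor cells, including neural ones. Capicua (CIC), a repressor that binds TGAATGAA and TGAATGGA and is inactivated by ERK, is known to hold several of these genes down.

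The peak lists held between 57534 and 91801 peaks, and WT DIFF replicate 3 stood apart from the other WT DIFF lists with 88738 peaks against 61783 and 57534. Read numbers are not part of the lists, so depth is unknown, and the absence of a peak means only that the caller found none. The body of Cdkn1b was overlapped by a peak in all 6 WT libraries and in 0 of the 4 p27KO libraries, as the titles say and against a free-text description that calls the p27KO libraries WT. All 8 markers of neural stem cells and progenitors that were looked up had a promoter peak in all 10 libraries. Among markers of other cell types the same held for 3 of 4 neuroblast, 2 of 3 oligodendrocyte, 3 of 5 microglial and 1 of 4 endothelial genes. It also held for 1 of 3 mural and fibroblast genes, Col1a1. Cx3cr1, Spi1 and Pecam1 had no promoter peak in any library. Every library had peaks on chromosome Y, 54 to 71 in WT, 58 and 40 in p27KO PRO and 26 and 32 in p27KO DIFF libraries. The sex of the animals is not given in the sources used here. A difference in sex between the genotypes, if there was one, cannot be told apart from genotype. With bulk cultures, fewer cells of a type with an open region cannot be told apart from less opening per cell.

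The letters under the peaks are given first. The genes were not chosen by these letters, but several are known to be repressed by CIC. A high share of its octamers is therefore not independent of the choice of genes. In the 300 bases around the summit, on either strand, 5 of 19 regions at promoters (26.3%) held TGAATGAA or TGAATGGA, against 2.14% of 20572 promoter regions in all, and 9 of 68 regions away from promoters (13.2%) held one, against 4.6% of 78419. The 14 regions with such an octamer belonged to 8 of the 10 genes and held 20 octamers in all, while no region of Spry1 or Spry2 held one. Of the 20290 protein-coding genes with at least 1 region in their window, 23.5% had an octamer in one, with a median of 8 regions per gene against 8.5 for the members. A match is a description of the letters and not a bound site. The sequences below have at least 2 octamers and lie in regions with a peak in all 10 libraries; they are shown because they carry more than 1 match to this motif. They are written 5′ to 3′ on the plus strand of GRCm38.p6, the octamers or their reverse complements are in capitals, and they overlap no match to the other motifs searched. The first lies at the Etv4 promoter (chr11:101785372-101785533), cut short so that no untranslated bases are printed, which leaves 2 of its 3 octamers. The second lies in an Etv4 intron (chr11:101772485-101772784). The third lies just upstream of Dusp4 (chr8:34806994-34807293) and the fourth in an Etv1 intron (chr12:38843794-38844093).
Etv4 promoter: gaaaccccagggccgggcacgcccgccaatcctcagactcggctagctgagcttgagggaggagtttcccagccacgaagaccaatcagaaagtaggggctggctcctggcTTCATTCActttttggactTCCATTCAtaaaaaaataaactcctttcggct
Etv4 intron: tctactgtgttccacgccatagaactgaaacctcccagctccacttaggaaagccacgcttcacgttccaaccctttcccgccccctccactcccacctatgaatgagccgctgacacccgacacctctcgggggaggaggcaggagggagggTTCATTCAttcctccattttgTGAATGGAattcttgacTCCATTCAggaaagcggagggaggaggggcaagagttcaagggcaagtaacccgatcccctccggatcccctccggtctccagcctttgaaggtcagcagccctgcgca
Dusp4 promoter: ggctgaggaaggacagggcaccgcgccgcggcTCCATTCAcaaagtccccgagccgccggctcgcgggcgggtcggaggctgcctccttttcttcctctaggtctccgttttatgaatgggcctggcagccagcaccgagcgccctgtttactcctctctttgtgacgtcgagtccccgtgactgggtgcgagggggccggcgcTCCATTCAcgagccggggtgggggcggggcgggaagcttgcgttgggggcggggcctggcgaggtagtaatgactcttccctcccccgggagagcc
Etv1 intron at 60.4 kb: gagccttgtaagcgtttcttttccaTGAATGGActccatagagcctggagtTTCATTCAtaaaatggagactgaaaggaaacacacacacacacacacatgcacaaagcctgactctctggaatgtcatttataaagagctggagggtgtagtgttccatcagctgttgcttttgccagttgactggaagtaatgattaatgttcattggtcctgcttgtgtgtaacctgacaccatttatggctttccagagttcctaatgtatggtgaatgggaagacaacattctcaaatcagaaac

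3 further sequences, from the same build and strand, come from regions that fell at mitogen withdrawal and hold AP-1 letters (TGACTCA), a sequence that dimers of Fos and Jun are known to bind. Of the 6 regions away from promoters that were called in either genotype these 3 hold the letters. The others, at 45.2 kb of Spry2, −30.4 kb of Spry4 and 34.0 kb of Spry1, do not. The letters are in 16.2% of member regions and 9.01% of all regions away from promoters, whether called or not. Their share among all called regions was not computed, so a link of the letters to the fall was not tested. E-box letters (CAGCTG) were likewise in 3 of the 6, against 27.5%. These were at −26.2 kb of Spry2, −30.4 kb of Spry4 and 5.2 kb of Etv1, and they are not in capitals below. The 3 printed sequences lie upstream of Spry2 (chr14:105922903-105923202), in an Etv1 intron (chr12:38788592-38788891) and in an Etv5 intron (chr16:22389161-22389460). In capitals are the AP-1 letters, the ETS letters in the Spry2 sequence and the CIC octamer in the Etv1 sequence, or their reverse complements.
Spry2 at −26.2 kb: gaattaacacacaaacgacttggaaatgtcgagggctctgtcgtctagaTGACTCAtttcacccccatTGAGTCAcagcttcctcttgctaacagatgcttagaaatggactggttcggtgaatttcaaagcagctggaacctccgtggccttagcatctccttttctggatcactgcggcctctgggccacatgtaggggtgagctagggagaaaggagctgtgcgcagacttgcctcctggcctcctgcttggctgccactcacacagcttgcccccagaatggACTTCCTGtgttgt
Etv1 intron at 5.2 kb: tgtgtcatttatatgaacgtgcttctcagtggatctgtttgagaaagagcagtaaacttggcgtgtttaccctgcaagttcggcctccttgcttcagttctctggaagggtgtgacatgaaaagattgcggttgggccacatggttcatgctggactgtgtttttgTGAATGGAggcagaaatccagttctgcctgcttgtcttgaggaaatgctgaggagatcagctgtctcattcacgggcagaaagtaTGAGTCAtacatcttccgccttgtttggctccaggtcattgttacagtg
Etv5 intron at 47.2 kb: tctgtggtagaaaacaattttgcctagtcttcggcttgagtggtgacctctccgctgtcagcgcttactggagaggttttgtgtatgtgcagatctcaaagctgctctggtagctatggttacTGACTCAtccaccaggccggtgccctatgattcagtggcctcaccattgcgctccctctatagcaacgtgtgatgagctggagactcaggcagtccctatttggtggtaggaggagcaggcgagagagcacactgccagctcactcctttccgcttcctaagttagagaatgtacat

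Distances are from the summit to the nearest start site of the gene, negative when upstream. None of the 4 regions shown for their octamers passed the test for a change with mitogen withdrawal, and only 1 of the 14 regions with an octamer did, an Etv1 intron region described later. Of the 14, 11 had enough peaks to be tested and 8 had a peak in all 10 libraries. The Etv4 intron region, with 3 octamers, sat at percentiles of 55.7, 71.3 and 48.7 in WT PRO and 10.8, 32.2 and 71.6 in WT DIFF libraries. These groups overlapped, and WT DIFF replicate 3 was the highest of all. The percentile is that of the region's fold enrichment among all peaks of the same list, with 100 for the most enriched peak. ETS letters (CCGGAAGT or CAGGAAGT) were found in 5.26% of promoter and 4.41% of other member regions, against 7.83% and 3.94% of all regions. The AP-1 letters TGACTCA were absent from the promoter windows (0 of 19, against 4.19%) and present in 11 of 68 other regions (16.2%, against 9.01%). E-box letters (CAGCTG) were in 15.8% and 32.4%, against 20.9% and 27.5%, SOX letters (ACAATGG or ACAAAGG) in 15.8% and 19.1%, against 7.87% and 15.7%, and the NFI palindrome in none. In the RefSeq table of promoter windows for the same build, 7 of the 10 genes were listed (all but Spry4, Dusp4 and Etv4), and 0 of these windows held the octamers, which occur in 2.47% of the 32851 windows; those windows end 50 bases past the start site and differ from the windows around summits.

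All 10 genes had a promoter peak in every library, in both conditions and both genotypes. Dusp5, which acts on ERK in the nucleus, had the most enriched promoter, with a mean percentile of 89.0 ± 3.57 (SD, n = 10 libraries), followed by Etv5 at 87.2 ± 2.34 and Etv4 at 81.1 ± 4.18. Dusp6, which acts on ERK in the cytoplasm, was at 78.4 ± 5.18, Etv1 at 76.3 ± 5.45, Spry2 at 74.0 ± 4.52, Spred1 at 70.8 ± 4.72 and Spry1 at 70.3 ± 7.60. Dusp4 at 67.3 ± 5.40 and Spry4 at 59.6 ± 8.55 (SD, n = 10 each) came last. Within libraries, Etv5 was above Etv4 in 10 of 10 and Dusp4 above Spry4 in 9 of 10, by 6.07 ± 4.67 and 7.65 ± 6.47 percentile points (SD, n = 10). Every other pair of neighbours in this order differed by less than the SD of the difference, in 5 to 8 of 10 libraries with the first higher.

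**Figure D1:**
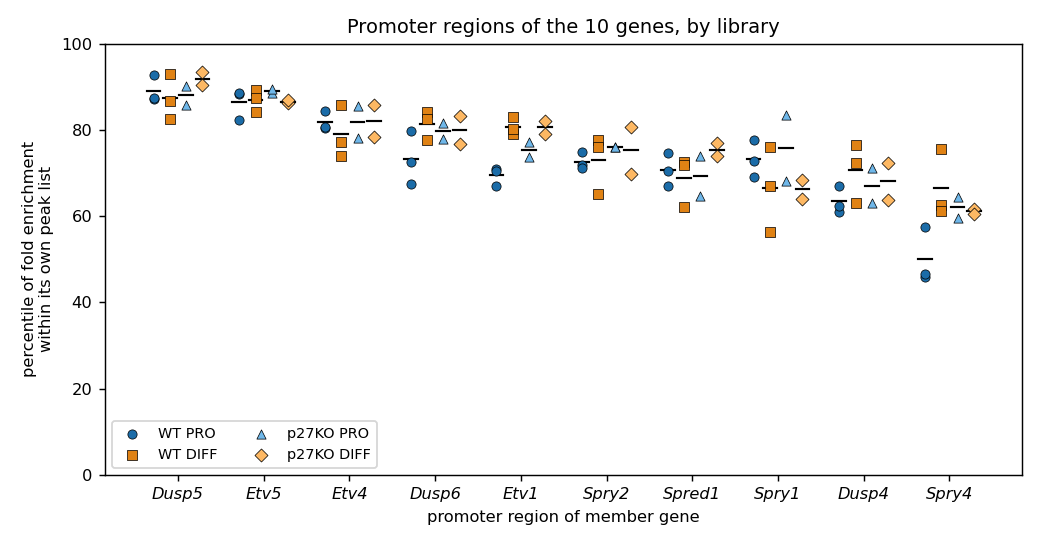
Percentile of the fold enrichment of each gene's promoter region within its own peak list (y axis, 0 to 100) for the 10 genes (x axis), with 1 point per library, coloured and shaped by group, and a bar at each group mean. Every gene has a point in all 10 libraries, and Spry4 is the gene whose 3 WT PRO points, from 46.0 to 57.6, all lie below its 3 WT DIFF points, from 61.2 to 75.7, with a change that passed the test.

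Dusp5 was the 1 gene with fewer peaks in every DIFF than in every PRO library of both genotypes, as were 5.02% of all protein-coding genes. It had 9, 7 and 8 peaks in its window in WT PRO libraries and 1, 4 and 5 in WT DIFF libraries. In p27KO it had 8 and 10 in PRO and 5 and 3 in DIFF libraries. This description has no test, and DIFF lists were shorter on average. In WT alone the groups were apart in this direction at 3 of the 10 genes (7.73% of all genes): Dusp5, Dusp4 with 6, 9 and 7 peaks in PRO and 5 in each DIFF library, and Etv1 with 7, 8 and 7 in PRO and 4, 4 and 6 in DIFF libraries. In p27KO alone they were apart at 2 of the 10 (33.6% of all genes), Dusp5 and Spry2, the latter with 8 peaks in each PRO and 6 in each DIFF library. Etv4 had 7 to 8 peaks in WT PRO, 7 to 10 in WT DIFF and 8 to 10 in p27KO libraries. Over all 10 genes there were 70, 73 and 68 peaks in WT PRO, 53, 45 and 69 in WT DIFF, 70 and 73 in p27KO PRO and 53 and 61 in p27KO DIFF libraries, or 0.0763% to 0.0935% of each list. The highest WT DIFF count came from replicate 3, the long list.

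**Figure D2:**
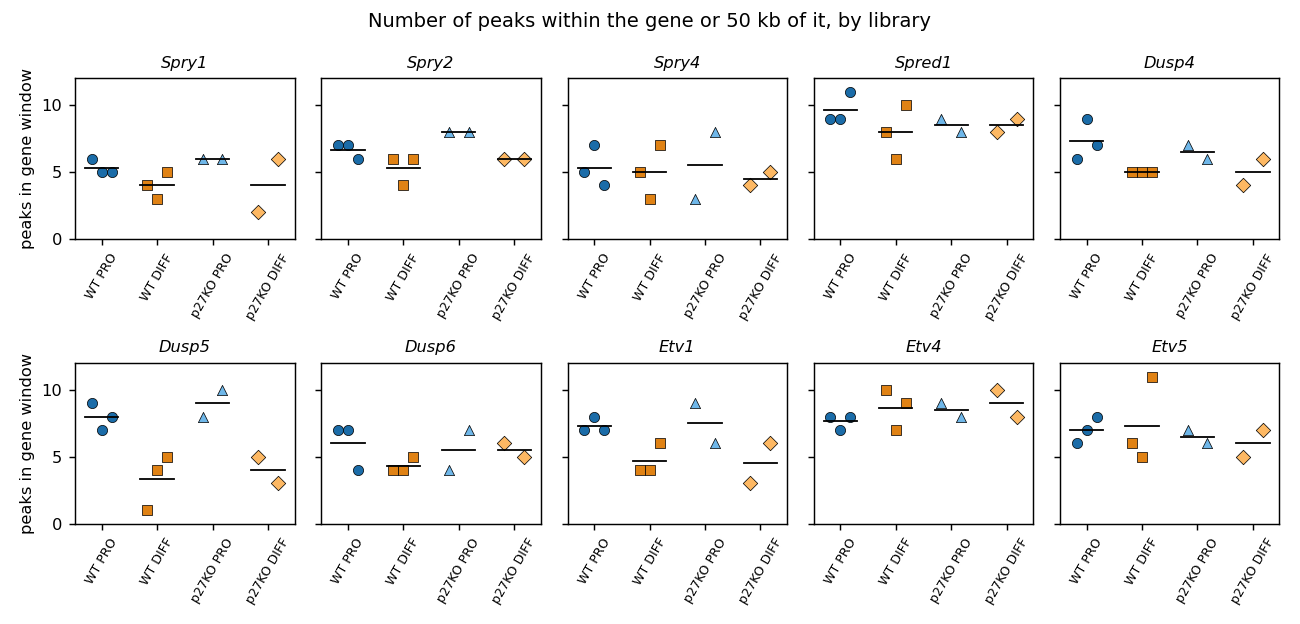
Number of peaks with a summit in each gene or within 50 kb of it (y axis, peaks) by group (x axis), with 1 point per library and a bar at the group mean, in 1 panel for each of the 10 genes. For Dusp5 every PRO point (7 to 10) lies above every DIFF point (1 to 5) in both genotypes.

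Whole regions that appeared or vanished were few. A closed region had peaks in every PRO library and in no DIFF library of a genotype, and an opened region had the reverse. In WT cells 5 of the 87 regions closed (4.32% of all regions did) and 1 opened (1.86%). The closed ones lay at −26.2 kb of Spry2, −19.7 kb of Dusp4, 6.6 kb of Dusp5, and 52.8 and 71.0 kb of Etv1, and the opened one lay in an Etv4 intron at 2.0 kb. In p27KO cells 5 closed (10.9% of all regions) and 2 opened (3.32%), with fewer libraries to meet the rule. The closed ones were at 34.0 kb of Spry1, 3.7 kb of Spry2, −5.1 and 6.6 kb of Dusp5 and −20.9 kb of Dusp6, and those that opened were at −33.6 kb of Spry4 and 2.4 kb of Dusp6. Apart from the Spry1 region at 34.0 kb and the Dusp5 region at 6.6 kb, these were listed after their values were seen. The Dusp5 region at 6.6 kb (chr19:53535435-53535778, intron) closed in both genotypes. It was a weak peak, at percentiles of 19.0, 10.0 and 23.9 in WT PRO and 9.1 and 29.3 in p27KO PRO libraries. Its rank did not pass the test, with a change of −0.39 ± 0.24 in WT (SE, limma, adjusted p = 0.305). A peak in all 10 libraries was present at 31 of the 87 regions (35.6%), against 38.2% of all regions. In WT 12 regions closed without DIFF replicate 3 and 8 without PRO replicate 3, while 2 opened without PRO replicate 1 and 3 without DIFF replicate 2. With only the top 57000 peaks of each list 2 closed in WT. In p27KO 10 to 13 regions closed when any 1 library was left out, and 7 and 5 opened without DIFF replicates 1 and 2.

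**Figure D3:**
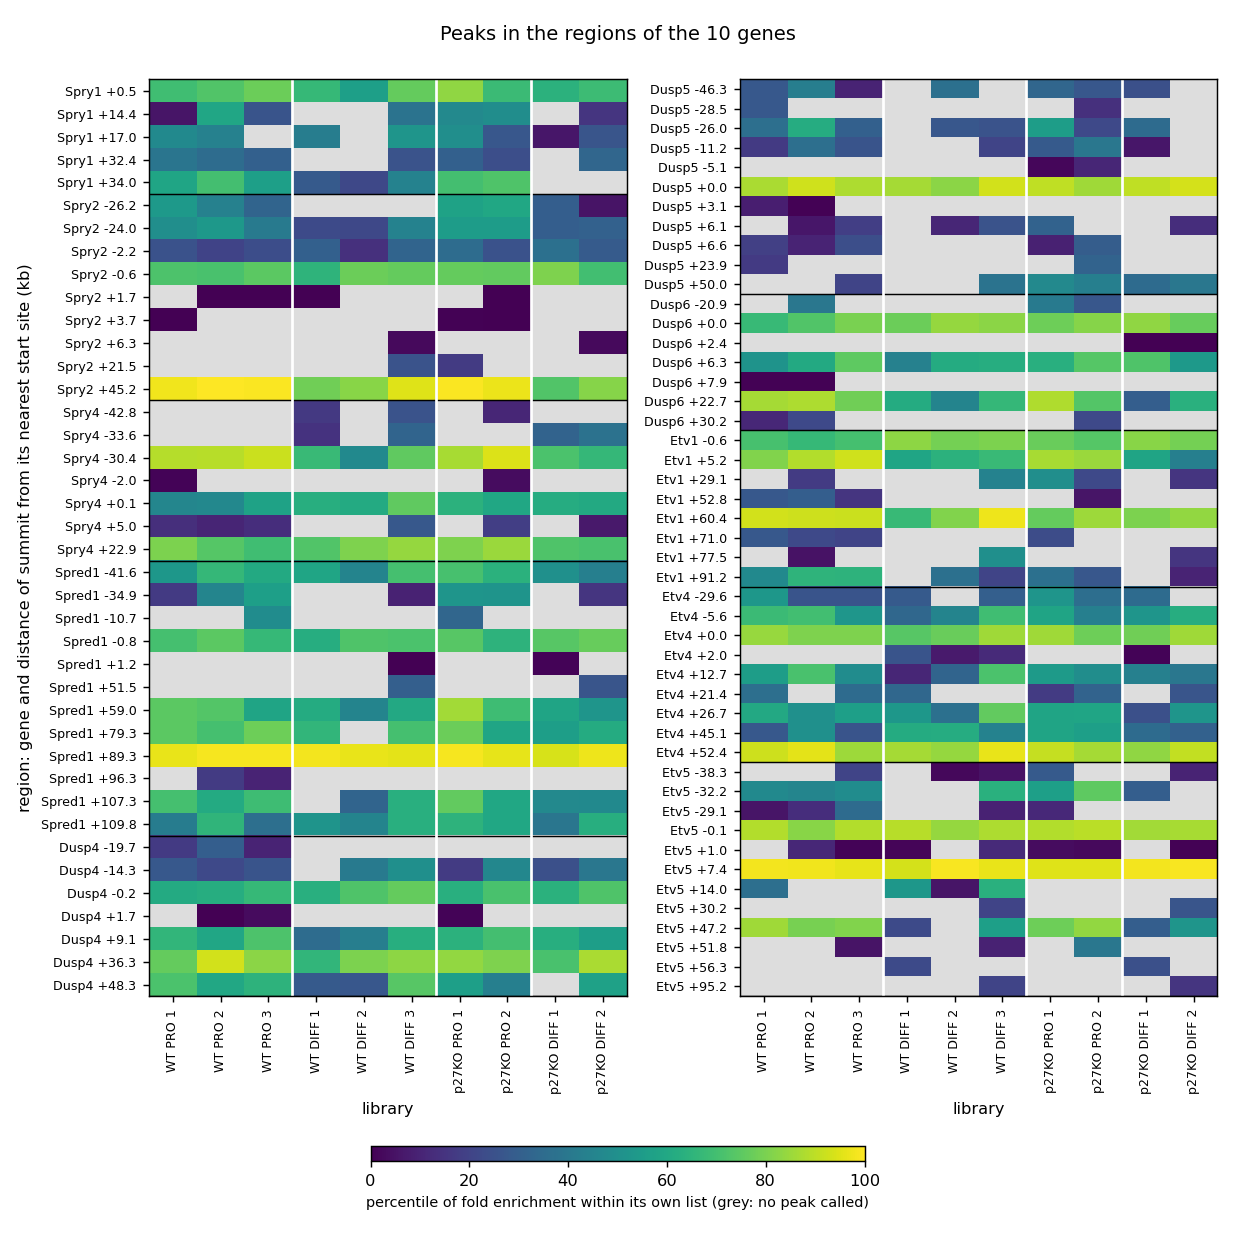
Percentile of fold enrichment within its own list (colour, 0 to 100, grey where no peak was called) for the 87 regions (rows, named by gene and by the distance of the summit from the nearest start site in kb) in the 10 libraries (columns, in 4 groups parted by white lines). The row nearest each gene's start site is filled in all 10 columns, while the rows at 6.6 kb of Dusp5 and −26.2 kb of Spry2 show peaks in all WT PRO and no WT DIFF column.

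At mitogen withdrawal in WT cells, regions at Spry2, Spry4, Etv1 and Etv5 fell in rank and the Spry4 promoter rose. Spry1, Spred1, Etv4 and the 3 Dusp genes had no region past the threshold. Of the 57 regions found in 5 or more libraries, 6 passed (limma, adjusted over 70627 regions), 5 lower and 1 higher. That is 10.5% of the member regions, below the 19.2% of all tested regions that passed (10.1% lower and 9.15% higher). The test used normal scores. In each library the tested regions were ranked and placed on a standard normal curve, with regions without a peak sharing the bottom ranks. The score of such a region depends on how many lack a peak in that library. A change is a shift in rank among tested regions and not a fold of signal. It can differ in sign from the percentiles, which rank all peaks of a list. Mean WT promoter percentiles at Spred1, Dusp5 and Etv4 were 70.8, 89.2 and 81.9 in PRO libraries. In DIFF libraries they were 68.9, 87.5 and 79.0, while the changes were 0.06, 0.01 and 0.01. The median change of the member regions was −0.16, against 0.03 over all regions. The difference between promoter and other regions was not tested, and most of their changes did not pass. Of the 12 tested regions at the genes' own promoters 11 had a positive change (median 0.24, against 0.11 over all promoter regions), and 7 of 12 did (median 0.02) when peaks were ranked by −log10 p. Of the 44 regions away from any promoter 32 had a negative change under either ranking (median −0.23, against −0.02 over all such regions). Of the 12 promoter regions 1 was called (7.08% of all promoter regions were). Of the 44 others 5 were called, all lower, where 23.3% of such regions passed in either direction and 12.5% were lower.

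In p27KO cells regions at Spry1, Spry2 and Etv1 fell. They were 3 of the 57 (12.3% of all regions were called, 6.48% lower), all of them lower and among the 44 away from promoters (15.2% of such regions were called, 8.11% lower). Of the 12 promoter regions 0 were called (3.76% of all promoter regions). The medians were 0.23 at the 12 promoter regions and −0.25 at the 44 others, against 0.13 and −0.01 over all regions of each kind, with 11 promoter regions positive (8 when ranked by −log10 p) and 29 others negative. The median away from promoters was −0.01 where peaks had to cover 50% of a region, with 17 of 31 negative, and −0.12 with regions found in 2 or more libraries. Without p27KO PRO replicate 1 or either p27KO DIFF replicate 1 member region was called.

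**Figure D4:**
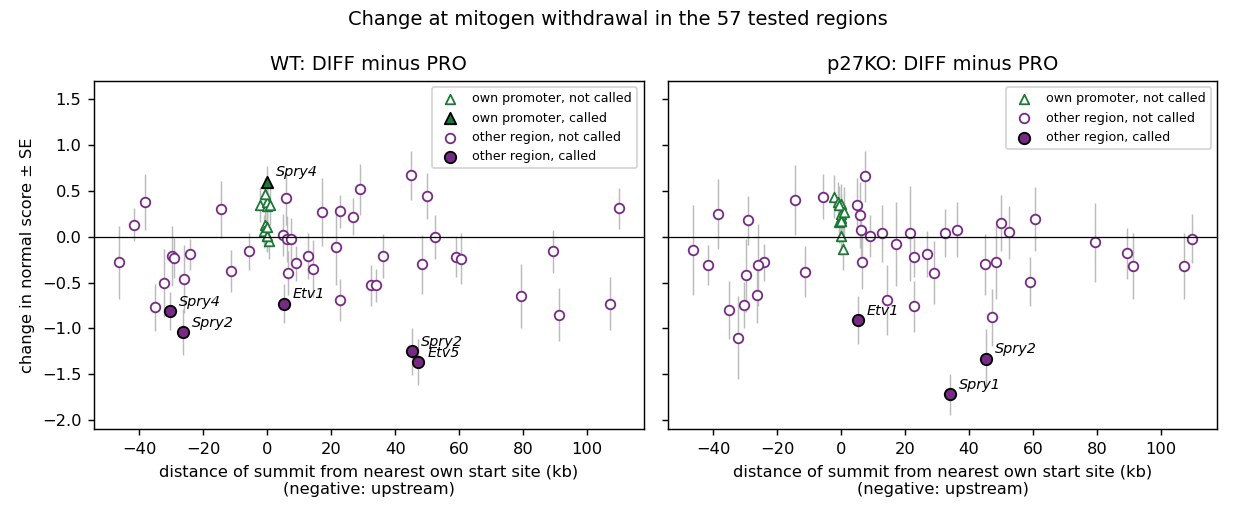
Change in normal score from PRO to DIFF (y axis, with SE bars) against the distance of the summit from the gene's nearest start site (x axis, kb, negative upstream) for the 57 tested regions, WT on the left and p27KO on the right. Triangles are the genes' own promoters and circles other regions, filled where the adjusted p was under 0.05. The filled circles, 5 in WT and 3 in p27KO, all lie below 0, and the filled triangle is the Spry4 promoter.

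Spry2, a Sprouty protein that blocks the path from growth factor receptors to ERK, had a region that fell in both genotypes, as did Etv1. It lies on the minus strand of chromosome 14 at 105891947 to 105896819 and had 9 regions, of which 5 were tested. The region 45.2 kb downstream of its start (chr14:105851068-105852063, intergenic) was among the strongest peaks of the PRO lists, at percentiles of 97.8, 99.8 and 99.4 in WT. In WT DIFF libraries it was at 78.4, 82.4 and 95.1. All 3 lay below every PRO value, and the highest came from replicate 3. The change was −1.25 ± 0.26 (SE, limma, adjusted p = 0.00690), and −1.44 without that replicate. In p27KO it went from 99.3 and 97.0 in PRO to 72.8 and 81.7 in DIFF libraries, a change of −1.33 ± 0.32 (adjusted p = 0.0205). The p27KO call was lost without PRO replicate 1 or either DIFF replicate (adjusted p = 0.137, 0.115 and 0.0645). The fold enrichment there went from 15.84, 19.35 and 17.85 in WT PRO to 8.60, 9.25 and 14.65 in WT DIFF libraries.

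The second Spry2 region that fell in WT lies at −26.2 kb (chr14:105922438-105923403), and it was chosen for naming after its values were seen. It stood at 54.1, 44.0 and 32.2 in WT PRO libraries and had no peak in any WT DIFF library (change −1.04 ± 0.25, SE, limma, adjusted p = 0.0128, and 0.0501 without WT PRO replicate 1). In p27KO it had a peak in all 4 libraries, at 57.6 and 59.5 in PRO and at 30.0 and 5.1 in DIFF, and the change of −0.64 ± 0.30 did not pass (adjusted p = 0.212). Its neighbour at −24.0 kb kept a peak in all 10 libraries, with a WT change of −0.19 ± 0.17 (adjusted p = 0.479). The mean over the 5 tested Spry2 regions fell in WT, from scores of 0.29, 0.41 and 0.30 in PRO to −0.07, 0.05 and −0.18 in DIFF libraries. That change of −0.40 ± 0.09 (SE, limma, adjusted p = 0.0127 over 17360 loci, 15.9% of which were called) made Spry2 the 1 member locus called. It was −0.13 and not called with regions of at least 2 libraries (adjusted p = 0.245) or where a peak had to cover at least 50% of the region (0.586). In p27KO the change was −0.33 ± 0.11 (adjusted p = 0.0849, with 7.51% of loci called). The promoter of Spry2 had a change of 0.13 ± 0.16 in WT (adjusted p = 0.654).

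Spry4, on the minus strand of chromosome 18 at 38586247 to 38601415, had regions that moved in opposite directions. The region at −30.4 kb (chr18:38631188-38632251) fell in WT, from percentiles of 88.7, 89.3 and 92.1 in PRO to 67.7, 47.4 and 75.4 in DIFF libraries. These groups did not overlap (change −0.81 ± 0.21, SE, limma, adjusted p = 0.0182). Without WT PRO replicate 3 or WT DIFF replicate 2 the adjusted p was 0.0628 and 0.0660. In p27KO it was at 86.8 and 94.7 in PRO and 71.8 and 66.6 in DIFF libraries, a change of −0.74 ± 0.25 (adjusted p = 0.0834). The promoter (chr18:38600586-38602778, with the first exon) rose in WT, from 46.0, 46.6 and 57.6 to 62.6, 61.2 and 75.7, again without overlap. As a region its change was 0.60 ± 0.17 (limma, adjusted p = 0.0298), and in the test over 14999 promoters, with the spread estimated from promoters alone, it was 0.60 ± 0.14 (adjusted p = 0.0388). With the spread estimated over all tested regions, a setting added after the data were seen, the promoter test gave 0.60 ± 0.17 (adjusted p = 0.153) and called 0.847% of all promoters. In the test with the promoters' own spread it was the 1 promoter of the 10 called in WT, where 3.49% of all promoters were called, and in p27KO, where 1.4% were, none of the 10 was. The promoter call held without WT PRO replicate 3 and was lost without any of the other 9 libraries (adjusted p from 0.0501 to 0.133). Where a peak had to cover at least 50% of the region the change was −0.04. In p27KO the promoter was at 64.4 and 59.7 in PRO and 61.8 and 60.6 in DIFF libraries (change 0.21 ± 0.17, adjusted p = 0.563).

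Spry1, a plus-strand gene of chromosome 3 (37639947 to 37644598), held the largest change measured at any member in p27KO. The region at 34.0 kb downstream (chr3:37673689-37674362, intergenic) stood at 58.7, 70.3 and 56.3 in WT PRO and 28.2, 21.8 and 44.4 in WT DIFF libraries. In p27KO it was at 70.2 and 72.6 in PRO libraries and had no peak in either DIFF library. The p27KO change was −1.72 ± 0.22 (SE, limma, adjusted p = 0.000855); its size depends on where the regions without a peak are placed. In WT the change of −0.53 ± 0.18 did not pass (limma, adjusted p = 0.0627). Spry1 was also the 1 gene whose promoter had a negative change in both genotypes, of −0.05 ± 0.16 in WT and −0.13 ± 0.19 in p27KO (adjusted p = 0.883 and 0.766). At Spred1, a membrane-bound Sprouty relative that brings neurofibromin to Ras, 8 of 12 regions were tested and none passed in either genotype. Its lowest p belonged to the region at −34.9 kb (chr2:117086223-117086694), which was at 16.9, 45.4 and 56.3 in WT PRO libraries, had no peak in WT DIFF replicates 1 and 2 and was at 9.6 in replicate 3. That change was −0.77 ± 0.26 (limma, adjusted p = 0.0609).

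**Figure D5:**
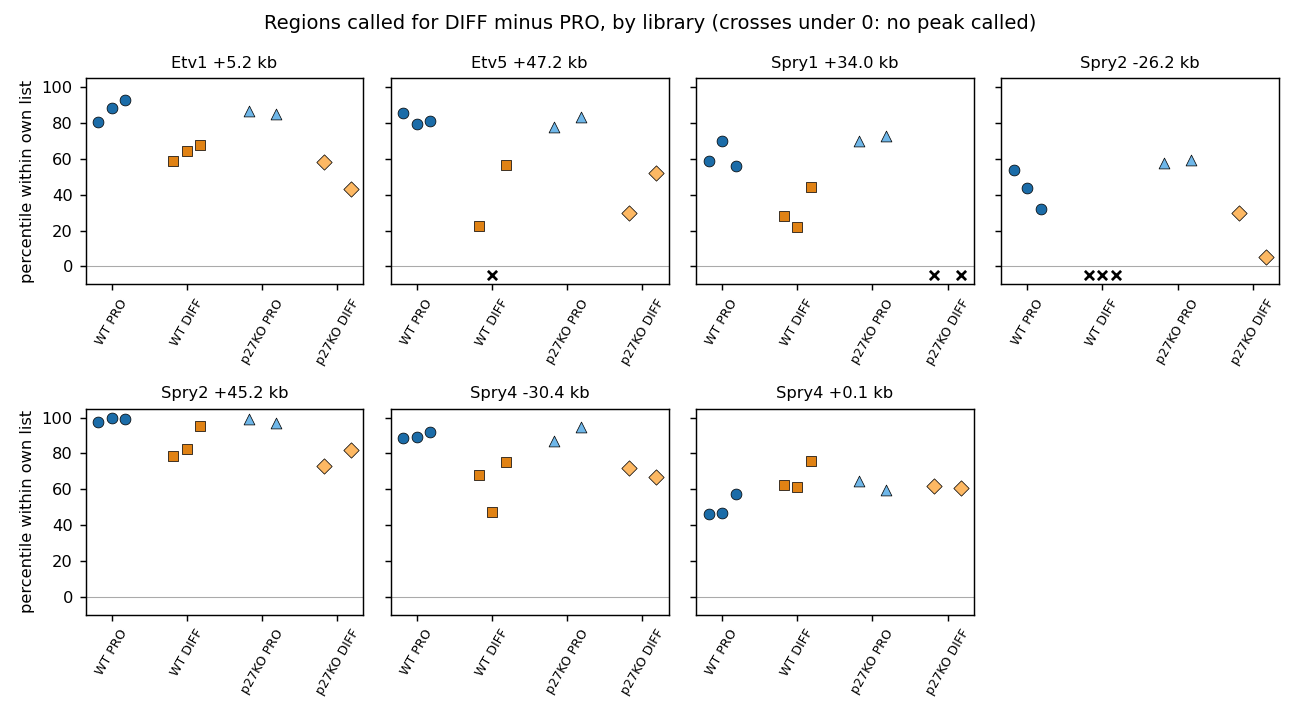
Percentile within its own list (y axis, 0 to 100) by group (x axis) for the 7 regions called in either genotype, with 1 point per library and a cross under 0 where no peak was called. In 6 panels the 3 WT DIFF points lie below the 3 WT PRO points, and in the panel of the Spry4 promoter they lie above. Regions called in WT were picked by these values, so the separation is no further support.

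The phosphatases Dusp4, Dusp5 and Dusp6 had no region past the threshold in either genotype, out of 5, 7 and 3 tested. Dusp6, a plus-strand gene of chromosome 10 (99263231 to 99267489), came nearest. Its region at 22.7 kb (chr10:99285642-99286237, downstream) was at 86.6, 87.5 and 78.4 in WT PRO and 61.4, 45.1 and 66.5 in WT DIFF libraries. The groups did not overlap, but the region was picked by its lowest p, so this is no further support. The change of −0.69 ± 0.23 in this region had an adjusted p of 0.0568 (limma). In p27KO it was at 88.1 and 73.2 in PRO and 30.0 and 63.6 in DIFF libraries (change −0.76 ± 0.28, adjusted p = 0.108). At Dusp5 (plus strand of chromosome 19, 53529109 to 53542431) the region with the lowest p lay at 50.0 kb. It had peaks in WT PRO replicate 3, in WT DIFF replicate 3 and in all 4 p27KO libraries (WT change 0.45 ± 0.25, limma, adjusted p = 0.255). Most WT libraries had no peak there, so this change depends on where regions without a peak are placed. Without WT PRO replicate 3, which left no WT PRO peak, the change was 0.74. At Dusp4 (plus strand of chromosome 8, 34807297 to 34819894) the region with the lowest p was the promoter, printed above with 2 octamers. That region was at 61.0, 62.3 and 67.1 in WT PRO and 63.1, 72.4 and 76.5 in WT DIFF libraries, with overlap and a change of 0.34 ± 0.18 as a region (adjusted p = 0.219). Promoter changes of Dusp6 and Dusp5 were 0.38 ± 0.17 and 0.01 ± 0.15 in WT (limma, adjusted p = 0.202 and 0.966).

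Among the Pea3 factors, regions in introns of Etv5 and Etv1 fell while the promoters and the regions with the most octamers did not pass. Etv5 lies on the minus strand of chromosome 16 at 22381309 to 22439719. Its intron region at 47.2 kb (chr16:22389100-22389574) was at 85.9, 79.3 and 81.1 in WT PRO libraries. In WT DIFF libraries it was at 22.5 and 56.5 in replicates 1 and 3 and had no peak in replicate 2, below every PRO value. The change was −1.37 ± 0.25 (SE, limma, adjusted p = 0.00315), the largest among the member regions in WT. In p27KO it was at 78.0 and 83.6 in PRO and 30.0 and 52.2 in DIFF libraries, with a change of −0.88 ± 0.31 that did not pass (adjusted p = 0.0893). Another Etv5 intron region, at 7.4 kb (chr16:22428605-22429623) with 1 octamer, was among the most enriched peaks of every list, at 93.6 to 99.1, and its WT change was −0.02 ± 0.23 (adjusted p = 0.970).

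Etv1 is a plus-strand gene of chromosome 12 (38779380 to 38870484). The intron region at 5.2 kb (chr12:38787947-38789467), printed above with 1 CIC octamer and AP-1 letters, was at 80.9, 88.5 and 92.9 in WT PRO and 58.7, 64.2 and 67.9 in WT DIFF libraries. In p27KO it was at 87.0 and 84.9 in PRO and 58.3 and 43.1 in DIFF libraries. The groups did not overlap in either genotype, and both changes passed, −0.73 ± 0.21 in WT and −0.91 ± 0.26 in p27KO (SE, limma, adjusted p = 0.0341 and 0.0444). Both calls sit close to the threshold. The WT call was lost without WT PRO replicate 2 or 3 or WT DIFF replicate 1 or 3, with adjusted p from 0.086 to 0.119, and the p27KO call without any 1 p27KO library or without 4 of the 6 WT libraries, with adjusted p from 0.0508 to 0.243 (limma). Ranked by −log10 p both were lost too (0.0569 and 0.0624), as they were with regions of at least 2 libraries (0.0514 and 0.0768). The promoter of Etv1 had the largest positive change after Spry4, 0.47 ± 0.14 in WT (adjusted p = 0.0843), and passed without WT DIFF replicate 3. The intron region at 60.4 kb with 2 octamers was at 93.1, 92.3 and 92.1 in WT PRO and 67.3, 81.0 and 97.4 in WT DIFF libraries, with overlap (change −0.24 ± 0.28, adjusted p = 0.608).

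Etv4, on the minus strand of chromosome 11 at 101769742 to 101785371, had 8 of 9 regions tested and none called. Of the 9 regions 4 lie in the body of the neighbouring gene Dhx8, 1 of them at its promoter. The lowest p belonged to a region there at 45.1 kb (chr11:101739997-101740571), with percentiles of 27.7, 50.3 and 25.9 in WT PRO and 61.4, 62.1 and 44.4 in WT DIFF libraries (change 0.67 ± 0.27, limma, adjusted p = 0.109). In p27KO the same region went from 58.4 and 56.6 to 34.9 and 31.1 (change −0.30 ± 0.33, adjusted p = 0.619). The promoter of Etv4 had a change of 0.01 ± 0.14 in WT and 0.17 ± 0.17 in p27KO (adjusted p = 0.971 and 0.646).

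No member region, promoter or locus was called different between the genotypes. The difference between the p27KO and the WT change (the interaction) was called at 0 of 57 member regions and at 0 of all 70627 (0% of all regions, limma). At an unadjusted p under 0.05 there were 2 member regions, Spry1 at 34.0 kb with an interaction of −1.20 ± 0.28 and Etv4 at 45.1 kb with −0.97 ± 0.42 (SE, limma, adjusted p = 1 for each). Over all regions 3.91% had such a p. Between genotypes in PRO 0 of 57 were called (0.034% of all regions), and 4 had an unadjusted p under 0.05, as had 5.53% of all regions: Dusp5 at 50.0 kb (0.98), Etv1 at 29.1 kb (0.78) and 91.2 kb (−0.88), and Etv5 at −29.1 kb (−0.61). In DIFF 0 were called (0.0156% of all regions) and 3 had such a p, as had 4.91% of all regions: Spry1 at 34.0 kb (−1.02, adjusted p = 0.409), Spry2 at −26.2 kb (0.66) and Dusp5 at 50.0 kb (0.68). The Etv1 and Etv5 regions were named after their values were seen. Among member promoters and loci 0 were called in any of these 3 comparisons, where 0% (interaction), 0.04% (PRO) and 0.0333% (DIFF) of all promoters and 0% to 0.00576% of all loci were. A p above the threshold does not show that the genotypes were alike. In simulated data with 200 of 70627 regions shifted by 1.5, the interaction test recovered 0% of them.

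Other genes of the pathway were then examined. Of 52 adaptors, Ras proteins, kinases, further inhibitors and ERK effectors, 3 promoters passed in WT, where 3.49% of all promoters did. Mapk3, which encodes ERK1, fell by 0.73 on the normal score scale (SE 0.17, limma, adjusted p = 0.0394), while Ier2, an immediate early gene, rose by 0.68 (SE 0.14, adjusted p = 0.0220) and Erf, an ETS repressor that ERK exports from the nucleus, by 0.77 (SE 0.18, adjusted p = 0.0406). In p27KO, where 1.4% of all promoters passed, the Mapk3 promoter was the 1 called, with a change of −0.97 ± 0.21 (adjusted p = 0.0432). None of these calls held with the spread estimated over all regions, where the adjusted p (limma) was 0.143 at Mapk3, 0.106 at Ier2 and 0.143 at Erf in WT and 0.17 at Mapk3 in p27KO. The median promoter change was 0.15 in WT and 0.16 in p27KO, against 0.12 and 0.14 over all promoters.

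At the level of loci 9 of the 52 passed in WT, 7 lower and 2 higher, where 15.9% of all loci passed, with a median change of 0.03 against 0.04 over all loci. Among the lower were the Ras gene Nras (−0.41 ± 0.09), Rasal2, a Ras GTPase-activating protein (−0.43 ± 0.13), and the Raf kinase Araf (−0.56 ± 0.09). So were the feedback inhibitor Il17rd (−0.44 ± 0.11), the dual-specificity phosphatase Dusp16 (−0.27 ± 0.08) and the ETS factor Ets2 (−0.53 ± 0.13). Higher were Braf (0.42 ± 0.09) and Atxn1l, a partner of CIC (0.38 ± 0.09), with adjusted p from 0.00197 to 0.0453 (limma). In p27KO, where 7.51% of all loci passed, 4 of the 52 did: Araf (−0.57 ± 0.11), Dusp16 (−0.38 ± 0.10) and Ets2 (−0.83 ± 0.16) lower and Braf (0.46 ± 0.11) higher. Among the members themselves 8 of 10 loci had a negative change in WT and 9 of 10 in p27KO, with a median of −0.14 in both, but the sign held under every alternative setting at only 3 of the 10 in either genotype.

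The loci whose mean scores most resembled that of Spry2 over the 10 libraries were Zcchc12 (Pearson r = 0.985), Pink1 (0.972), Cxcl12 (0.968), Vipr2 (0.966) and Adra1b (0.961). They were the highest of 13635 candidate loci, 11 of which had r over 0.95. The 10 points fall into 4 groups and share their lists, so these values describe a pattern that all of them have in common with the difference between PRO and DIFF: each had a negative change in WT, from −0.54 at Zcchc12 to −0.28 at Vipr2.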

How the data were processed

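Peak lists of 10 ATAC-seq libraries were analysed, grouped by sample title. The authors removed adapters (cutadapt) and low-quality bases (Trimmomatic), aligned reads to GRCm38 (mm10) using Bowtie2, flagged duplicates using Picard, and ran MACS2 on each library separately (narrow peaks, no model, FDR 0.05); versions and read shift are not given in the sources used here. The deposited lists give a fold enrichment, which is a ratio of the summit pileup to the local background, and the authors' −log10 p-value and −log10 q-value (lowest 1.3). The study's read-based test needs alignments, which were not used here, so depth is unknown and precision rests on the 2 or 3 libraries per group.

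Peaks of all lists were merged where they shared at least 1 bp, and the 99231 regions found in 2 or more libraries were kept; no peak passed a chromosome end of GRCm38.p6. Genes came from GENCODE M21. A promoter region had its summit within 3 kb of a start site. The highest fold enrichment per region was ranked among the tested regions of its library and converted to a normal score. Missing peaks shared the bottom ranks. Regions found in 5 or more libraries (70627), 1 promoter region per gene (14999) and the mean over each gene's window with at least 3 tested regions (17360) entered separate limma fits (version 3.58.1, R 4.3.3), each with a mean for every group; p-values were adjusted by Benjamini-Hochberg (threshold 0.05). The fits were tested on simulated data in which 200 regions, promoters or loci were shifted. A shift of 1 was recovered in 0.5% of these regions in WT and 0% in p27KO. A shift of 1.5 was recovered in 43.5% and 26.5%, and in 0% for the interaction. At promoters a shift of 1 was recovered in 66% and 48%, and at loci in 94% and 90%. The simulated scores had no tied missing peaks. Far larger shares of regions were called in the data (19.2% in WT and 12.3% in p27KO), which makes the adjusted threshold easier to pass. Member regions with WT changes of 0.60, −0.73 and −0.81 were called, so the simulated shares do not give the power of the DIFF minus PRO tests in the data.

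Motifs were searched on both strands in 300 bases around each summit. The members and lists were chosen with earlier results of these data known. Named by rule were the promoter and the tested region with the lowest WT p of each member, any region past the threshold between genotypes, regions closed or opened in both, up to 12 pathway genes past the threshold by lowest p, and the 5 loci most like the member locus with the lowest WT p. Where a region was named for a low p, a lack of overlap between its groups follows from that choice and is no further support. The rule also asked for the sequences of the regions with the largest fall and rise and of up to 2 others; the further sequences and their regions were chosen after values and letters were seen. 1 marker gene and 1 pathway gene are not reported here. The promoter test estimated the spread from promoter regions alone; an added alternative took it from all tested regions, which called 127 promoters in WT in place of 523 and 72 in p27KO in place of 210. Other alternatives changed the ranked value, the filter, the list length, the window, the groups fitted, the replicate block and the libraries.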

Additional observations from a re-analysis of the deposited data

How the results depend on the processing

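Of 177 counts of member regions, promoters and loci recomputed under the other settings, 153 stayed within 1.5 times the reported count. Leaving out 1 library kept 148 of 170 counts there. With ranks by −log10 p, 2 member loci were called in WT and 1 in p27KO and 0 promoters in WT. With regions in at least 2 libraries there were 0 loci and 0 promoters in WT. With the top 57000 peaks there were 2 loci in each genotype, 2 regions closed and 0 opened in WT, and 3 closed in p27KO. Where peaks had to cover 50% of a region, 0 loci and 0 promoters were called in WT and 8 regions closed in p27KO. With a 10 kb window 0 loci and 3 regions were called in WT and 1 region in p27KO, 3 regions closed in each genotype and 1 opened in p27KO, since fewer regions lie in it. With −log10 q of at least 3, 1 region opened in p27KO. With only the groups compared in the fit, or with the spread estimated over all regions (added after seeing the data), 0 promoters were called in WT. Except for the 10 kb window, the cause of these shifts was not tested.

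Correlations of deviations between libraries of the same replicate number were weak (r from −0.141 to 0.065). Between WT PRO and WT DIFF they were 0.057, 0.065 and 0.033, against −0.051 to −0.005 for different numbers. The −0.141 is from p27KO, where deviations in groups of 2 libraries mirror each other. These values do not show whether the libraries were paired. With the replicate block 6 member regions were called in WT and 2 in p27KO, and 0 promoters in WT. The block ended both calls at 5.2 kb of Etv1 (limma, adjusted p = 0.0567 in WT and 0.0722 in p27KO) and added the Etv1 region at 91.2 kb in WT (0.0499). With the numbers crossed in p27KO DIFF, added after seeing the data, the block gave 7 regions in WT, 2 in p27KO and 0 promoters in WT.

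Leaving out each library in turn gave 4 to 7 regions and 0 to 1 promoters called in WT, 1 to 3 regions and 0 to 1 loci in p27KO, with 5 to 12 closed and 1 to 3 opened regions in WT and 10 to 13 and 2 to 7 in p27KO.

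Signs of promoter and locus changes were kept under every setting at 3 of the 10 genes each in WT, and at 5 and 3 in p27KO. Locus signs changed in some setting at Dusp4, Dusp5, Etv1, Etv4, Etv5, Spry1 and Spry4 in both genotypes. The values that follow are promoter changes. Ranked by −log10 p, the WT promoter change was −0.13 at Spred1, 0.03 at Spry1, −0.07 at Etv4, −0.41 at Spry2, −0.03 at Etv5 and −0.16 at Dusp5. With regions in all 10 libraries it was −0.01 at Etv4. Where peaks had to cover 50% of the region it was 0.03 at Spry1, −0.42 at Etv4 and −0.04 at Spry4, and −0.83 at Spry4 in p27KO. Leaving out 1 library gave WT promoter changes of −0.05 to 0.14 at Spred1, −0.12 to 0.03 at Spry1, −0.02 to 0.06 at Etv4 and −0.06 to 0.13 at Dusp5. None of these reported changes was called apart from that of Spry4 in WT. Depth is unknown, so a missing peak cannot be told apart from shallow sequencing.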
